A study of Mus musculus with 12 samples.

Results

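Saa3, Cfb, C3, Hp, Cfp, C4b and Serping1, 7 of the 34745 genes of the expression table, were described across 12 libraries of mouse femoral bone marrow. The 7 were taken by gene name as complement and acute-phase genes, and they were chosen with their counts in the 4 groups already known. Their differences between groups are therefore given as a description, with the error of the fit and without a test. RNA came from male ICR mice, an outbred stock, with 3 mice in each group and 1 library per mouse. Mice of the normal group received saline. Mice of the model group were given saline by mouth and cyclophosphamide, an alkylating drug that kills dividing cells, at 80 mg/kg/day on days 5 to 7 of 1 week. The QJSB group had the same cyclophosphamide and 3 g/kg/day of QJSB, a herbal granule. The leucogen group had it together with 20 mg/kg/day of leucogen, a clinical drug against low leucocyte counts. The table heads its columns with other words than the labels for 3 of the 4 groups, so normal and leucogen were read from the meaning of the heading and QJSB by exclusion, and each value of these groups depends on that reading. No group received QJSB or leucogen without cyclophosphamide, and the age of the mice was not given in the sources used here.

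Acute-phase genes encode proteins whose production rises in inflammation. The liver makes most of them for the blood, and leucocytes make some of them locally. Complement is a cascade of proteases and binding proteins. It can be started by antibody through C1q, C4 and C2 (the classical pathway) or amplified on a surface by C3, factor B and properdin (the alternative pathway), and both routes cut C3. In bone marrow, neutrophils and their precursors make haptoglobin, C3 and properdin, and macrophages make C1q.

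Library totals ran from 11172547 to 18545198 counts. Levels are given as CPM (counts scaled to a common library size), scaled by the TMM factors of edgeR, and levels of different genes are compared only as FPKM, which the authors divided by transcript length. The marrow label was compared with marker lists. All 10 hepatocyte markers were in the table, and 8 of them, Alb and Apoa1 among these, had at most 3 counts in every library. The summed level of 8 erythroblast genes was 12031 to 13460 CPM in normal and 77.0 to 748 CPM in the 9 libraries with cyclophosphamide. The summed level of 10 B lineage genes was 1906 to 2058 CPM in normal and 13.1 to 252 CPM in those 9 libraries. In RNA of whole marrow, fewer cells of a type and less RNA per cell cannot be told apart. Libraries model 1 and QJSB 1 stood apart from the other 2 of their groups. They had the lowest sums over 15 late neutrophil genes in their groups, 2181 and 3550 CPM, and the highest sums over 15 stromal and bone genes, 777 and 938 CPM, where the other 10 libraries had 194 to 443 CPM.

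In normal marrow Saa3 was at or near 0 and Cfb was low, while Hp and C3 were abundant. After cyclophosphamide alone, the 3 libraries of model lay above the 3 of normal for Saa3, Cfb, C3, Hp and C4b, and below them for Cfp and Serping1. With QJSB, each of the 7 genes overlapped with model. With leucogen, Saa3, Cfb and Cfp lay below model in every library. The plot of CPM by library shows these levels.

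**Figure D1:**
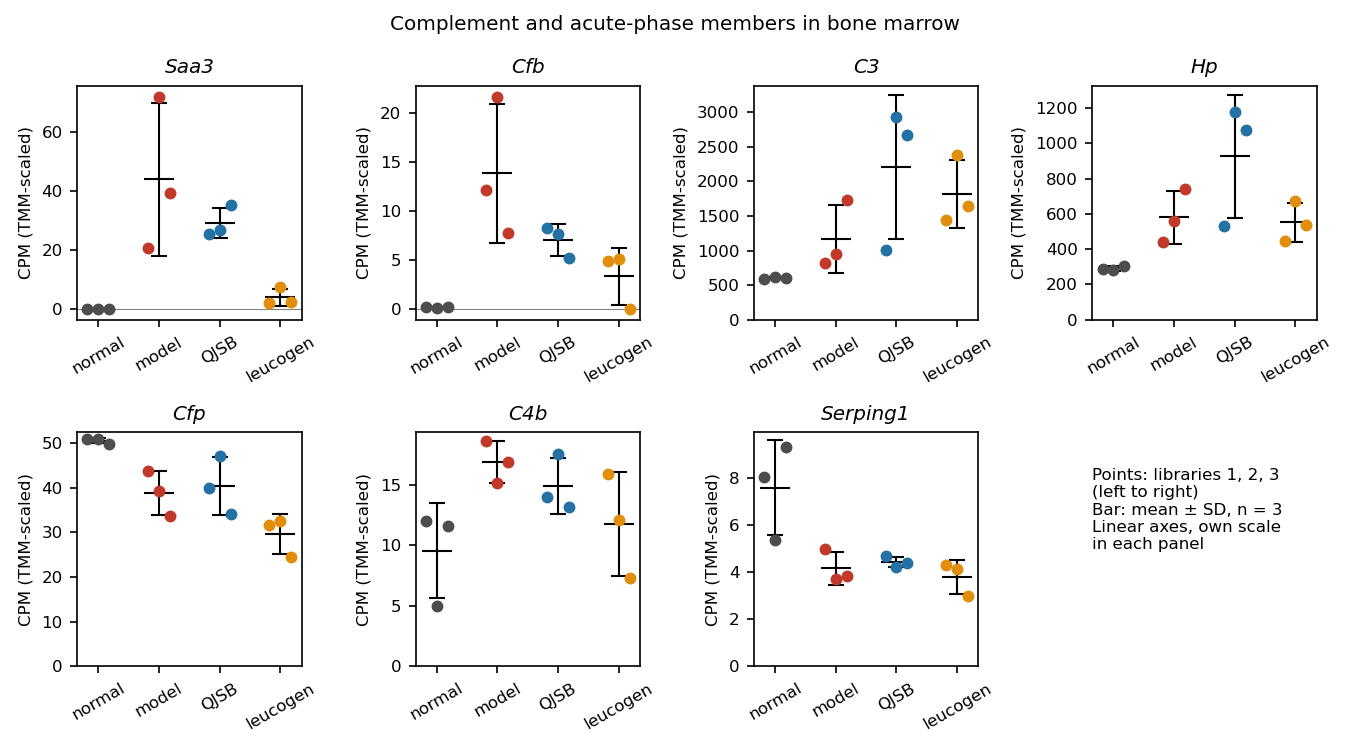
TMM-scaled CPM of the 7 genes (vertical axes, linear, a scale for each panel) in the normal, model, QJSB and leucogen groups. Points are libraries 1, 2 and 3 from left to right, and black bars give the mean ± SD (n = 3). Saa3 was between 20.7 and 72.1 CPM in model and between 1.98 and 7.39 CPM in leucogen.

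On the scale of FPKM, the order of the mean levels in normal was Hp (213 ± 11.1, SD, n = 3), C3 (104 ± 2.26), Cfp (24.3 ± 0.105), Serping1 (2.62 ± 0.711) and C4b (1.49 ± 0.613), with Saa3 and Cfb below 0.13 FPKM in every library. The Cfb levels here are those of its own row. In normal most reads of that locus were given to an overlapping gene model, Gm20547 (0.450 ± 0.107 FPKM), described below. In model Saa3 (88.1 ± 51.2 FPKM) came next after Hp (459 ± 96.9 FPKM) and C3 (217 ± 82.1 FPKM). Cfp had 20.5 ± 3.60 FPKM there. The levels of Cfb (3.10 ± 1.59 FPKM) and C4b (2.88 ± 0.403 FPKM) in model overlapped, and Serping1 was the lowest at 1.58 ± 0.342 FPKM. The order of the first 4 was the same in QJSB, with Saa3 at 54.7 ± 9.22 FPKM. In leucogen Saa3 (6.98 ± 5.22 FPKM) stood below Cfp (13.9 ± 2.33 FPKM), and Hp (390 ± 69.0 FPKM) and C3 (304 ± 75.5 FPKM) overlapped.

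Saa3 encodes serum amyloid A3, an acute-phase protein that in mice is made mainly outside the liver, by macrophages among other cells. The deposited table places the gene on chromosome 7 at chr7:46711998-46715676 (GRCm38), on the minus strand in GENCODE M21. The start region of Saa3 is shown because this gene had the widest range over the groups, and those of C3 and Cfp because they were the other members with an entry in the promoter table, 3 of 7 matched. Each sequence runs from 250 bases before to 50 bases after the start of the gene, 5′ to 3′ on the minus strand, as RefSeq gives it for GRCm38.p6. The windows are chr7:46715627-46715926 for Saa3, chr17:57228087-57228386 for C3 and chrX:20931506-20931805 for Cfp. Capitals mark matches, on either strand, to GGNNTTTCC (an NF-kB pattern), TTGCNNAA (a C/EBP pattern), TTCNNNGAA (a STAT pattern) or GAANNGAAA (an interferon response pattern), and no matches overlapped.
Saa3: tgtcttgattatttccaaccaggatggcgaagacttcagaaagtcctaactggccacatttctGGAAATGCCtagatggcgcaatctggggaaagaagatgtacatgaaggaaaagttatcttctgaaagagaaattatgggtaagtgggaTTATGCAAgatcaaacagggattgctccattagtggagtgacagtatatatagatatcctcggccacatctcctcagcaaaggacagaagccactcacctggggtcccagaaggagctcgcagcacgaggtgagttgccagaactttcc
C3: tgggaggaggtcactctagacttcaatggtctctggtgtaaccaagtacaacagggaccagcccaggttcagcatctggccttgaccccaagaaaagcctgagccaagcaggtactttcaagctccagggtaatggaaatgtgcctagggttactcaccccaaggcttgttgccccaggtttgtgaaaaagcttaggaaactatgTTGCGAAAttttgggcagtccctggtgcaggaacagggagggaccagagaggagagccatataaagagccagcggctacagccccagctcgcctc
Cfp: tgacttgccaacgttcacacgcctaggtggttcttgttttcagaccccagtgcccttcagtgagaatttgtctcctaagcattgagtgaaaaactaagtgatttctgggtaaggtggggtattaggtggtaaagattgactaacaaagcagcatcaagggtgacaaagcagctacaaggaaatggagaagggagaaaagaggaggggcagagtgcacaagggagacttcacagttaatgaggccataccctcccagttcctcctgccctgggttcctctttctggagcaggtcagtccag
The Saa3 window held 1 NF-kB match that began 187 bases before the start and 1 C/EBP match that began 99 bases before it. The C3 window held 1 C/EBP match, 45 bases before the start. The Cfp window held 0 matches to the 4 patterns. Of all 32851 promoters of the table, 5.82% held the NF-kB pattern, 10.8% the C/EBP pattern, 8.30% the STAT pattern and 7.52% the interferon response pattern. In windows of the same kind, Saa1 and Saa2, with 0 counts in every library, and Lcn2, with counts in each, also held 1 C/EBP match each. A match says only that these letters are present.

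Saa3 had 0, 0 and 1 count in the 3 libraries of normal. In model it had 359, 1017 and 684 counts, or 20.7, 72.1 and 39.5 CPM. In QJSB it had 476, 463 and 578 counts, or 25.5, 26.8 and 35.2 CPM. All 6 libraries of model and QJSB were thus far above normal, and the QJSB values lay within the range of model. In leucogen Saa3 had 25, 102 and 25 counts, or 1.98, 7.39 and 2.40 CPM. Each of these was above normal and below every library of model and of QJSB, and leucogen 2 was the highest of the 3. The summed level of 10 monocyte markers, of which 0 were at 0 in every library, was 946 to 1051 CPM in normal, 2079 to 3442 CPM in model, 1621 to 2260 CPM in QJSB and 1670 to 2105 CPM in leucogen. Within model this sum was highest in model 1, where Saa3 was lowest, and the part of monocytes in the levels of Saa3 was not tested.

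The ratio of the summed counts of Saa3, divided by library size, was 1812 for model over normal, with a 95% interval of 325 to 71607. The same ratio was 1244 (223 to 49148) for QJSB over normal and 177 (31.3 to 7043) for leucogen over normal. These intervals cover counting error only, and each rests on the 1 count in normal. The fitted log2 fold change from normal to model was 10.46 ± 0.89 (SE), and 12.41 without the normal library that held this count. Leucogen was 11.0-fold below model, a log2 fold change of -3.46 ± 0.68, and -4.31 without leucogen 2. QJSB was 7.24-fold above leucogen, a log2 fold change of 2.86 ± 0.47, and 3.71 without leucogen 2. QJSB and model differed by -0.61 ± 0.40, with a 95% interval from -1.54 to 0.32. Without model 2, the highest library, that difference was -0.06.

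The counts of Saa3 were set against its paralogs, since close copies can split reads. Saa1 and Saa2, the serum amyloid A genes of the liver response, had 0 counts in all 12 libraries, and Saa4 had 1 count, in leucogen 1. A count of 0 allows up to 3 counts in a library. Of the 2151 stretches of 50 bases in the longest coding transcript of Saa3, 0 were found in transcripts of Saa1, Saa2 or Saa4, and 3.91% were found in transcripts of other genes. That transcript has 2 exons and is 1 of 3 of the gene, and stretches found only in the others were not compared.

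Over the 12 libraries, the 5 genes whose log2 CPM ran most like that of Saa3, among 13842 genes with a mean of at least 1 CPM, were Acp2 (Pearson r = 0.983), Ifngr1 (0.979), Gla (0.979), Abhd11 (0.978) and Aprt (0.977). Acp2 and Gla encode lysosomal enzymes, and Ifngr1 encodes a chain of the interferon gamma receptor. The libraries share their group, and between groups each of these genes had its lowest level in normal. Gla had 8.38 ± 1.04 CPM in normal (SD, n = 3), 36.5 ± 6.17 CPM in model, 37.5 ± 3.95 CPM in QJSB and 21.1 ± 0.954 CPM in leucogen. Among the other members, r with Saa3 was 0.857 for Cfb, 0.806 for Hp, 0.649 for C4b, 0.623 for C3, -0.390 for Cfp and -0.678 for Serping1. Their ranks among the 13842 genes were 708, 1132, 2504, 2740, 9538 and 11515, so many other genes ran more like Saa3. The value for Cfb is that of its own row, which shares reads with an overlapping gene model described below. These r values describe 12 libraries that fall into 4 groups and were not tested.

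Cfb encodes complement factor B, the protease of the alternative pathway C3 convertase. It lies on the minus strand at chr17:34856374-34862518. Its counts could not be read alone. Gm20547 is a readthrough gene model on the same strand (chr17:34856412-34882042) that runs from Cfb into C2, the neighbouring complement gene. In GENCODE M21 it covers 79.5% of the exonic bases of Cfb, and 81.4% of the 50-base stretches of the longest coding transcript of Cfb recur in it. Reads there can be given to either gene.

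The deposited counts of Cfb were 3, 2 and 3 in normal, where Gm20547 had 19, 29 and 32. In model Cfb had 210, 306 and 135 counts and Gm20547 had 0, 1 and 0. In QJSB Cfb had 155, 133 and 85 counts and Gm20547 had 1, 11 and 0. The assignment thus leaned to Gm20547 in normal and to Cfb in model and QJSB. In leucogen Cfb had 62, 70 and 0 counts and Gm20547 had 0, 2 and 40. In leucogen 3 the reads of the locus were all given to Gm20547, and the 0 for Cfb in that library does not stand for an unexpressed locus. How the counting program divided these reads was not tested.

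**Figure D2:**
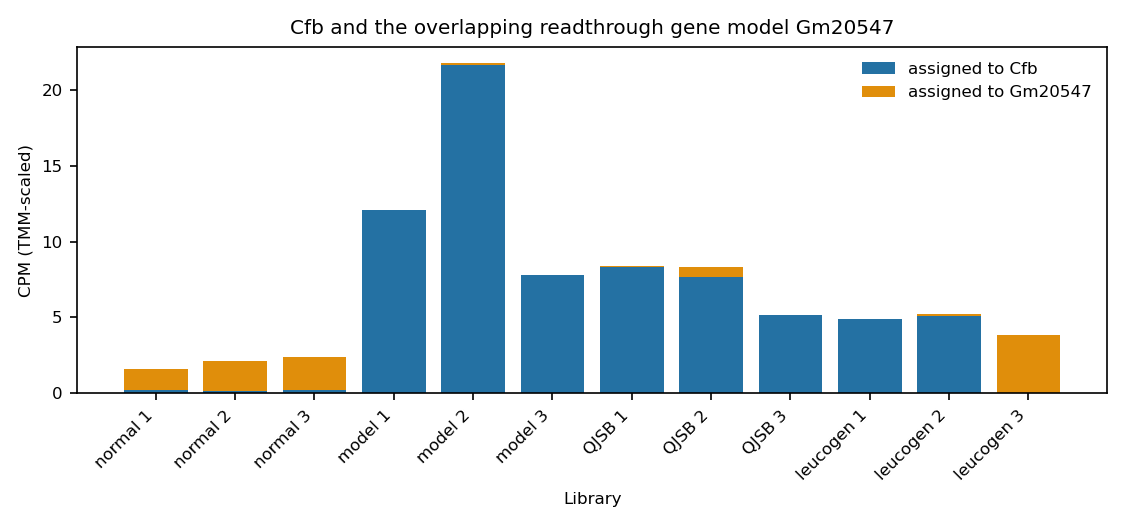
TMM-scaled CPM assigned to Cfb (blue) and to the overlapping gene model Gm20547 (orange) in each of the 12 libraries, stacked. The 3 normal libraries and leucogen 3 were assigned mainly to Gm20547, and the other 8 to Cfb.

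Counted together, the 2 gene models had 1.59, 2.13 and 2.41 CPM in normal and 12.1, 21.8 and 7.79 CPM in model. QJSB had 8.37, 8.33 and 5.18 CPM and leucogen had 4.92, 5.22 and 3.84 CPM. The sum in every library with cyclophosphamide was above that in every normal library, and leucogen was below model in every library but overlapped with QJSB. The change from normal to model was 6.78-fold for the sum (log2 2.76 ± 0.40) and 71.4-fold for the Cfb row alone (log2 6.16 ± 0.53). From model to leucogen it was -1.56 ± 0.37 for the sum and -2.02 ± 1.00 for Cfb alone. QJSB minus model was -0.94 ± 0.39 for the sum (95% interval -1.82 to -0.06) and -0.99 ± 0.38 for Cfb alone (-1.86 to -0.12). Both intervals are those of a single gene without adjustment, and model 3 lay below QJSB 1 and QJSB 2 on the sum. QJSB minus leucogen was 0.62 ± 0.27 for the sum and 1.04 ± 0.91 for Cfb alone. The sum was chosen after these counts were seen.

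C3 encodes the component on which all complement pathways converge. It lies at chr17:57203970-57228136 and had the most counts of the 7 genes in every library. C3 was at 591, 610 and 605 CPM in normal and at 814, 949 and 1724 CPM in model. QJSB had 1007, 2928 and 2672 CPM and leucogen had 1438, 2375 and 1641 CPM. Every library with cyclophosphamide was above normal, and the 3 treated groups overlapped with each other. The spread in normal (SD 9.97 CPM) was narrow beside that in model (491 CPM) and QJSB (1043 CPM). Model was 1.94-fold above normal (log2 0.95 ± 0.26), and the log2 value was 0.56 without model 3, the highest library. QJSB minus model was 0.91 ± 0.43 with a 95% interval from -0.09 to 1.90, and leucogen minus model was 0.65 ± 0.31 with an interval from -0.04 to 1.35.

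Hp encodes haptoglobin, which binds free haemoglobin and is stored in neutrophil granules as well as made by the liver. It lies at chr8:109575130-109579172. Hp was at 289, 279 and 305 CPM in normal and at 443, 561 and 738 CPM in model. QJSB had 530, 1178 and 1072 CPM and leucogen had 447, 670 and 537 CPM. As with C3, every library with cyclophosphamide was above normal, and QJSB 2 and QJSB 3 were the highest of all. Model was 2.00-fold above normal (log2 1.00 ± 0.18). QJSB minus model was 0.66 ± 0.32 (95% interval -0.06 to 1.38), and leucogen minus model was -0.07 ± 0.22 (-0.55 to 0.42).

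The summed level of 15 late neutrophil genes, Ltf, Camp, Ngp and Lcn2 among them, was read beside C3 and Hp. It was 10674 to 11280 CPM in normal, 2181, 7148 and 5690 CPM in model, 3550, 20120 and 13451 CPM in QJSB and 16011 to 20235 CPM in leucogen. Within QJSB, library 1 was the lowest and library 2 the highest in this sum, in C3 and in Hp. Model 1 was the lowest of its group in all 3, but the sum was highest in model 2 while C3 and Hp were highest in model 3. The sum was lower in every library of model than in normal, where C3 and Hp were higher. With model 1 and QJSB 1 both left out, QJSB minus model was 1.04 for C3 and 0.76 for Hp on the log2 scale, where all libraries gave 0.91 and 0.66. The part of neutrophil content in these differences was not tested.

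**Figure D3:**
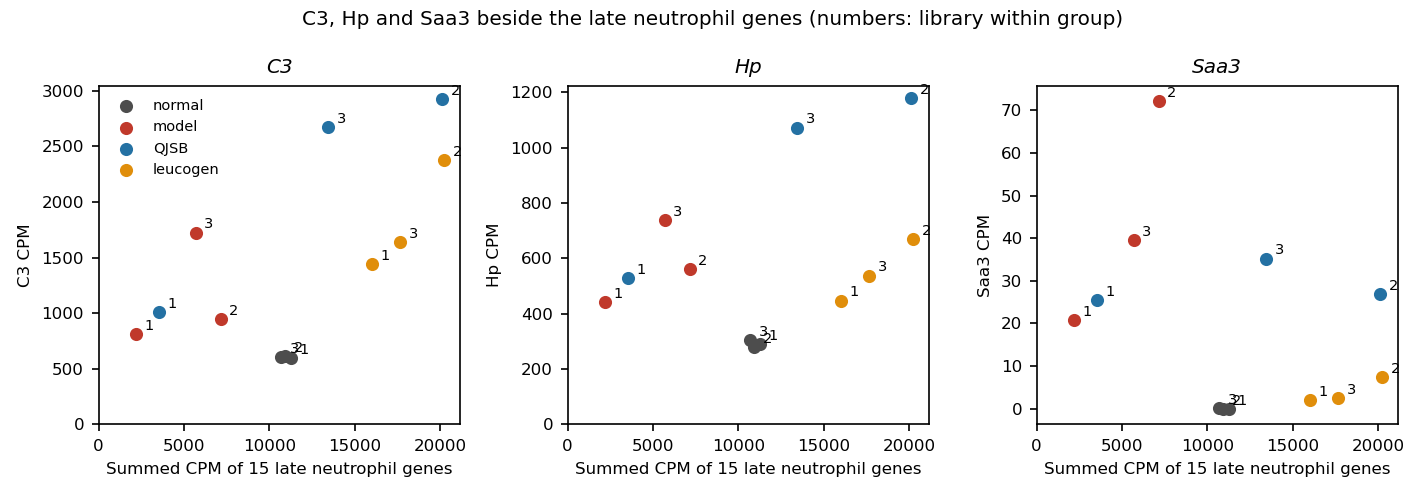
CPM of C3, Hp and Saa3 (vertical axes) against the summed CPM of 15 late neutrophil genes (horizontal axes) in the 12 libraries, coloured by group and numbered within it. In model and QJSB the library with the lowest sum, 2181 and 3550 CPM, also had the lowest C3 and Hp. Saa3 was lowest in model 1 within model. Within QJSB the order of Saa3 depended on the scale, with 25.5 CPM and 52.3 FPKM in QJSB 1 and 26.8 CPM and 47.0 FPKM in QJSB 2. The leucogen libraries combined sums of 16011 CPM or more with Saa3 below 7.40 CPM.

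Cfp encodes properdin, which stabilises the alternative pathway convertase. It lies at chrX:20925454-20931555. Cfp was at 50.8, 50.8 and 49.9 CPM in normal and at 43.7, 39.2 and 33.7 CPM in model. QJSB had 40.0, 47.0 and 34.2 CPM and leucogen had 31.6, 32.6 and 24.5 CPM. Normal was above every library with cyclophosphamide, and leucogen was below every library of the other groups. The log2 fold change was -0.37 ± 0.14 from normal to model, -0.39 ± 0.17 from model to leucogen and 0.43 ± 0.17 from leucogen to QJSB. Between QJSB and model it was 0.04 ± 0.19 with an interval from -0.38 to 0.46.

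C4b encodes complement C4, which the classical and lectin pathways cleave. It lies at chr17:34728380-34743882, in the same stretch of chromosome 17 as Cfb and C2. C4b was at 12.02, 5.01 and 11.6 CPM in normal and at 18.6, 15.2 and 16.9 CPM in model. QJSB had 13.95, 17.5 and 13.2 CPM and leucogen had 15.9, 12.1 and 7.29 CPM. Model was above normal in every library, and leucogen overlapped with both. The log2 fold change from normal to model was 0.83 ± 0.31. It was -0.20 ± 0.20 from model to QJSB (95% interval -0.66 to 0.26) and -0.51 ± 0.27 from model to leucogen (-1.11 to 0.09). Of the 50-base stretches of C4b, 35.2% recur in its near copy C4a, which had 7 to 41 counts in a library where C4b had 73 to 323, so part of the reads of either could have been given to the other.

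Serping1 encodes the C1 inhibitor, which blocks the proteases of the classical and lectin pathways. It lies at chr2:84765387-84775444. Serping1 was at 8.04, 5.35 and 9.30 CPM in normal and at 4.96, 3.69 and 3.81 CPM in model. QJSB had 4.67, 4.22 and 4.38 CPM and leucogen had 4.29, 4.13 and 2.97 CPM. Every library with cyclophosphamide was below normal, and the 3 groups with cyclophosphamide overlapped. The log2 fold change from normal to model was -0.86 ± 0.27, and between QJSB and model it was 0.08 ± 0.27 (95% interval -0.54 to 0.70). In leucogen minus model it was -0.12 ± 0.28. Counts of Serping1 were 31 to 135 in a library.

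Side by side, the groups of model and normal lay apart for 7 of 7 genes, 5 with model higher and 2 with model lower. Of all 14752 genes tested there, 16.1% were called higher and 19% lower, at a change of over 1.5-fold and an adjusted p under 0.05 by the quasi-likelihood test of edgeR. For leucogen and model 3 of 7 lay apart (Saa3, Cfb and Cfp), with leucogen lower in each, beside 11.6% of 14184 genes called higher and 11.5% lower. For QJSB and leucogen 3 of 7 lay apart, with QJSB higher in each, beside 12.9% of 14266 genes called higher and 11.7% lower. Cfb is among these 3 on its own row, and its sum with Gm20547 overlapped. For QJSB and model 0 of 7 lay apart, and 0% of 14486 genes were called in either direction. In that comparison 723 genes had an unadjusted p under 0.05, and DESeq2 called 8 genes. The shares of genes called are another measure than lying apart. The share of all genes whose groups lay apart was not computed, so these shares give no scale for the members. Since the members were chosen on these counts, no calls are given for them and nothing is read from how many lay apart. These comparisons share libraries (model is in 3 of them), so their values are not independent.

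**Figure D4:**
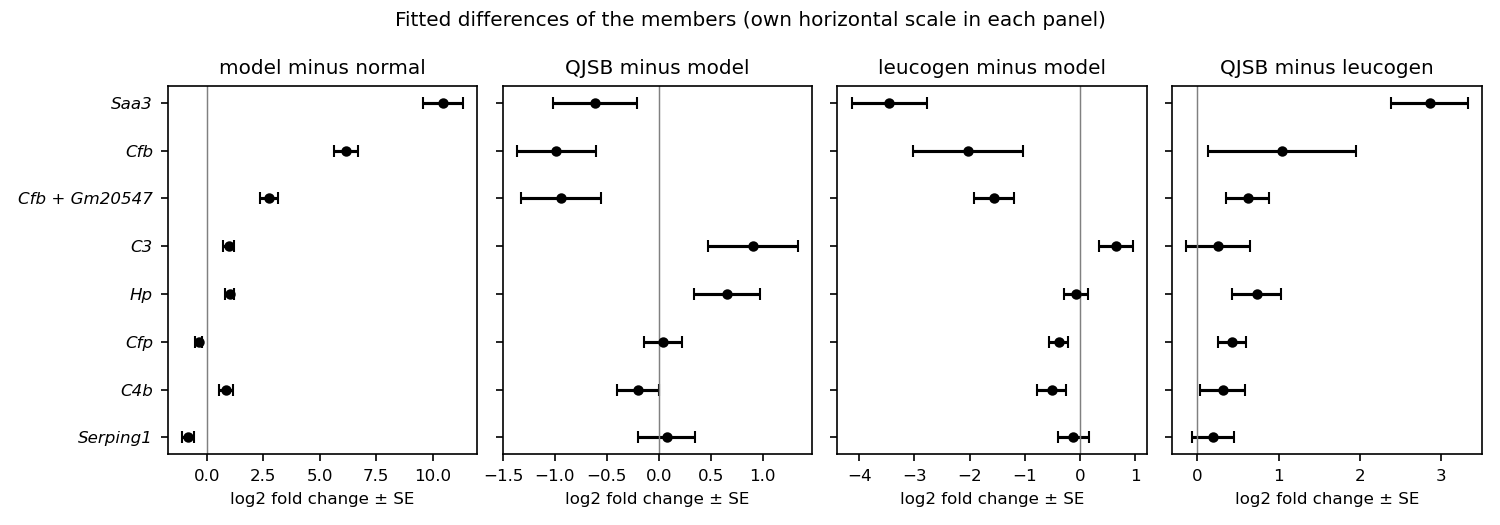
Fitted log2 fold change ± SE of the 7 genes, and of Cfb counted together with Gm20547, in the 4 comparisons (horizontal axes, a scale for each panel, and 3 libraries per group). From normal to model Cfb alone lies at 6.16 and the sum at 2.76, and QJSB minus model ranges from -0.99 for Cfb to 0.91 for C3.

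The other genes of the same pathways were read from 9 lists with 124 genes that hold none of the 7. In model against normal 84 of them passed the filter on low counts, 23 were called higher and 27 lower, and their median log2 fold change was 0.04, beside 0.02 over all genes. In leucogen against model 84 were tested, 14 were called higher and 13 lower, with a median of -0.04 beside -0.05. With total counts in place of TMM that split was 11 higher and 17 lower. In QJSB against leucogen 83 were tested, 15 were called higher and 10 lower. In QJSB against model 81 were tested and 0 were called in either direction by edgeR or DESeq2, and 2 had an unadjusted p under 0.05.

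C1qa, C1qb and C1qc, which encode the chains of C1q, were lower in model than in normal by log2 fold changes of -1.61 ± 0.18, -1.49 ± 0.15 and -1.94 ± 0.21 (edgeR adjusted p = 0.000237, 0.000171 and 0.000205). The other 4 tested genes of that list were not called. The summed level of 15 macrophage markers, a list that holds these 3 genes, was 582 to 669 CPM in normal and 300.1 to 456 CPM in model, and its part in the difference was not tested. Of 4 tested genes of the lectin pathway, Fcna, which encodes ficolin A, was lower (-2.62 ± 0.18, edgeR adjusted p = 2.43e-05) and Colec12 was higher (0.89 ± 0.25, adjusted p = 0.0216). C2, which shares its locus with Gm20547, was not called in model against normal (0.89 ± 0.37, adjusted p = 0.0853).

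Of 10 tested complement regulators, 3 were higher and 6 lower in model. Cd55, which encodes a membrane protein that speeds the decay of C3 convertases, was at 175 ± 11.8 CPM in normal and 20.2 ± 7.45 CPM in model, a log2 fold change of -3.12 ± 0.25 (edgeR adjusted p = 5.80e-05). In leucogen, where 9 of 15 late neutrophil genes were called higher than in model, it was at 94.1 ± 7.82 CPM, above model by 2.23 ± 0.24 (edgeR adjusted p = 0.00177), and in QJSB at 26.8 ± 3.09 CPM. Of 9 tested complement receptors, 1 was higher and 3 lower in model. Cr2, a receptor of B cells, was lower by 9.32 ± 0.38 on the log2 scale (edgeR adjusted p = 5.94e-06), beside 8 of 10 B lineage genes called lower, whose part in it was not tested. Calr, whose product calreticulin binds C1q and which is also a chaperone of every cell, was higher by 1.83 ± 0.21 in model (edgeR adjusted p = 0.000307) and lower by 1.63 ± 0.23 in leucogen than in model (adjusted p = 0.00302).

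**Figure D5:**
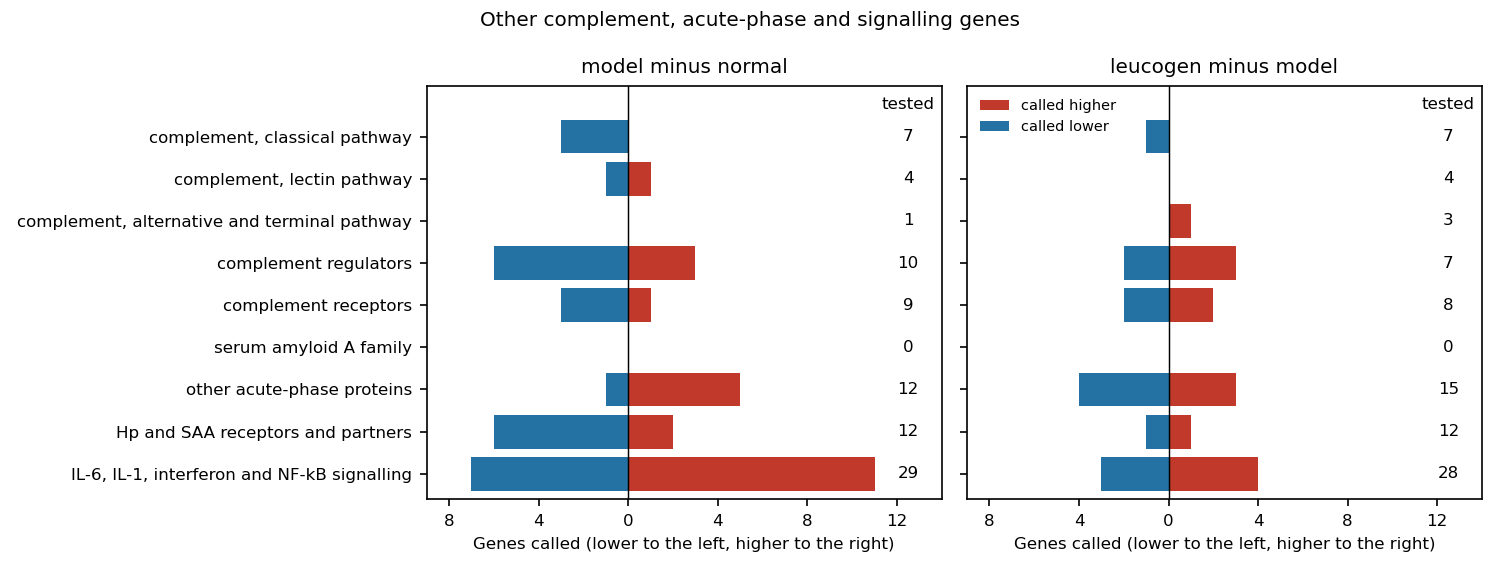
Number of genes called higher (red, to the right) and lower (blue, to the left) by edgeR in each of the 9 lists of related genes, for model minus normal and leucogen minus model, with the number tested at the right. The signalling list had 11 higher and 7 lower of 29 in model, and the receptor and partner list of Hp and serum amyloid A had 2 higher and 6 lower of 12.

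Of 12 tested genes for other acute-phase proteins, 5 were higher and 1 lower in model. Of the 10 monocyte markers, 6 were called higher and 1 lower in the same comparison, and their part in the acute-phase and signalling genes was not tested. Lbp, which encodes the lipopolysaccharide binding protein, was at 27.1 ± 3.11 CPM in normal and 185 ± 94.0 CPM in model (log2 2.77 ± 0.36, edgeR adjusted p = 0.000932). In leucogen against model Lbp was not called (166 ± 18.3 CPM in leucogen, log2 -0.14 ± 0.33, edgeR adjusted p = 0.772). Serpina3n, a protease inhibitor gene, was higher in model by 2.14 ± 0.36 (edgeR adjusted p = 0.00200) and lower in leucogen than in model by 1.64 ± 0.31 (adjusted p = 0.00732), the same directions as Saa3. Orm1, the gene of orosomucoid, was higher in leucogen than in model by 2.14 ± 0.36 (edgeR adjusted p = 0.00704). For the receptors and partners of haptoglobin and serum amyloid A, 2 of 12 were higher and 6 lower in model. Blvrb, a biliverdin reductase gene with high expression in red cell precursors, was lower by 4.64 ± 0.37 (edgeR adjusted p = 8.95e-05). In the same comparison 8 of the 8 erythroblast genes were called lower, and their part in it was not tested. Fpr2, which encodes a receptor that binds serum amyloid A, was lower in model by 1.52 ± 0.24 (edgeR adjusted p = 0.00139) and higher in leucogen than in model by 2.46 ± 0.33 (adjusted p = 0.00379). The part of the late neutrophil genes in the values of Cd55, Orm1 and Fpr2 was not tested.

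Of 29 tested genes of interleukin 6, interleukin 1, interferon and NF-kB signalling, 11 were higher and 7 lower in model. The cytokine genes Il1b (-4.94 ± 0.38, edgeR adjusted p = 4.93e-05) and Il6 (-2.68 ± 0.54, adjusted p = 0.00449) were lower. Cebpb, which encodes a transcription factor of the acute-phase response, was higher by 1.68 ± 0.33 (edgeR adjusted p = 0.00416), and so was Ifngr1, by 1.60 ± 0.12 (adjusted p = 3.91e-05). In leucogen against model 4 of 28 were higher and 3 lower. Ifngr1 was lower there by 0.82 ± 0.14 (edgeR adjusted p = 0.00607), and Tnf (1.40 ± 0.27, adjusted p = 0.00821) and Nfkbiz (1.32 ± 0.15, adjusted p = 0.00177) were higher. Il6 was at 1.37 ± 0.249 CPM in normal and 0.210 ± 0.132 CPM in model, so its difference rests on few counts.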

How the data were processed

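RNA of femoral bone marrow was depleted of ribosomal RNA and strand-specific libraries were sequenced. Seqtk was used by the authors to filter reads, and HISAT2 to map them to GRCm38.p4. The authors deposited whole-number read counts without normalization and FPKM, which they computed from fragments, transcript length and total fragments. The counting program, its use of strand and its annotation are not given in the sources used here. Columns headed Blank, Model, Positive and Stilbene were taken to be normal, model, leucogen and QJSB (from what the words mean, the last by exclusion). With this reading, mean normalized counts were within 1% of those listed in the supplement for 298, 300 and 300 of 300 genes in its 3 comparisons, and for at most 10 under any other pairing, so the assignment rests in part on values. 0 columns of samples were left unused.

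The members and the lists were chosen with earlier results of these data known. Counts were fitted with edgeR 4.0.16 in R 4.3.3 (TMM, filterByExpr, robust glmQLFit, glmQLFTest), each comparison on its own 6 libraries, with Benjamini-Hochberg adjustment over all genes tested. A gene was called at an absolute log2 fold change over 0.585, the cutoff of the study, and an adjusted p under 0.05. SE is the log2 fold change divided by the root of the F statistic, and 95% intervals use its degrees of freedom. Log2 CPM for correlations used a prior count of 2. Where 2 rows shared a symbol, the row with more counts was used. The genes named are the 7 members, up to 3 called genes with the largest change per list in model against normal and in leucogen against model, and the 5 genes most like Saa3. Not all of these are described, 1 is not reported here, and C2 was named as the neighbour of Cfb. Gene models and transcripts came from GENCODE M21 (GRCm38) and promoters from RefSeq (GRCm38.p6). The code of the fit was run on simulated counts with the same dispersion for every gene. That run checked the code and not the error rates in these groups.

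Alternatives were DESeq2 1.42.0, edgeR with DESeq2 size factors or unscaled library totals, no filter or a minimum of 10 counts per library, a joint fit of the 12 libraries, a block for the replicate number, limma-trend (3.58.1) on log2(FPKM + 0.1), and leaving out single libraries. Counting Cfb with Gm20547 and leaving out model 1 and QJSB 1 together were added after seeing the data. Replicate pairs differed by more than counting error (chi-square per degree of freedom from 10.2 to 99.6). Libraries with the same number deviated from their group means together in QJSB and model (r = 0.426, 0.123 and 0.107 over 15310 genes). The largest r was that of model 1 and QJSB 1, the libraries that stood apart. The labels name no pairs, and the fold changes, SE and intervals given for QJSB minus model are unpaired. Pairing by number entered only in the alternative with the replicate block.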

Additional observations from a re-analysis of the deposited data

How the results depend on the processing

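The counts of related genes called kept within 1.5 times of their value under each alternative that used all libraries. Leaving out 1 library at a time gave 17 to 25 higher and 24 to 27 lower in model against normal, 7 to 16 higher and 6 to 15 lower in leucogen against model, and 9 to 17 higher and 5 to 14 lower in QJSB against leucogen. In leucogen against model the higher count was 9 without leucogen 2 and 7 without leucogen 3, and the lower count was 8 without leucogen 1 and 6 without leucogen 3. In QJSB against leucogen the higher count was 9 without leucogen 3 and the lower count 5 without leucogen 1. QJSB against model stayed at 0 under all alternatives run.

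With the replicate block, 21 were higher and 26 lower in model against normal, 14 and 14 in leucogen against model, 15 and 11 in QJSB against leucogen, and 0 in QJSB against model. Outside QJSB against model, same-numbered libraries correlated between -0.094 and 0.181.

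For the members, Saa3 in model against normal was 9.22 on log2(FPKM + 0.1), and Cfb was 4.41 there and 2.76 with Gm20547. Signs changed only for values near 0, namely Cfp and Serping1 in QJSB against model and Hp and Serping1 in leucogen against model. Colec12 in model against normal lost its call without model 1 or any 1 normal library (adjusted p = 0.0551 to 0.0774). Low counts, as for Cfb in normal and Il6, limit precision. With 3 mice per group outliers within a group were not tested.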
